A study of Mus musculus with 30 samples.

Results

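Liver mRNA of male mice on HFCFD, a feed rich in fat, cholesterol and fructose, was examined for 8 genes of hexose entry and glycolysis, a transporter, a fructose kinase and isozymes of hexokinase, aldolase and pyruvate kinase: Slc2a2, Hk1, Hk2, Hk3, Khk, Aldoa, Pklr and Pkm. They were picked by symbol, with earlier results of these data known. The 8 symbols took 9 of 55450 rows of the count table, because Aldoa is the symbol of a pair of neighbouring gene models. The second Aldoa row, ENSMUSG00000114515.2, had 0 counts in all but 2 libraries, with 1 count in each of those, and only ENSMUSG00000030695.16 is described.

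There were 3 experiments, each with 5 control and 5 knockout mice and 1 library per mouse. All controls carried the floxed allele without cre (Cebpa fl/fl), and all mice were of strains backcrossed to C57BL/6N. In HFCFD2W, after 2 weeks of HFCFD, the knockouts were Cebpa ΔHep mice, in which cre is driven by the albumin promoter and deletes Cebpa constitutively in hepatocytes. In HFCFD8W+T10D and HFCFD12W+T10W the knockouts were Cebpa ΔHep,ERT2 mice, whose albumin-driven cre acts only under tamoxifen. By the labels both genotypes had tamoxifen, for 10 days in HFCFD8W+T10D and for 10 weeks in HFCFD12W+T10W, at the end of 22 weeks of HFCFD. The labels do not settle whether the 8 weeks of HFCFD8W+T10D include those 10 days. The ages of the mice are not given in the sources used here. The knockout mice of HFCFD2W are numbered 2 to 6 in the labels and all other groups 1 to 5, and values are given in that order.

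Library totals ran from 7996123 to 10257347 counts. Cebpa, the deleted transcription factor, was 149 to 193 CPM in the controls of HFCFD2W and 3.43 to 5.67 CPM in the knockouts. It was 121 to 156 against 11.1 to 25.1 CPM in HFCFD8W+T10D and 82.4 to 135 against 18.7 to 23.8 CPM in HFCFD12W+T10W, so the genotypes did not overlap in any experiment. CPM are counts relative to library size, after TMM scaling, which trims extreme genes. Of the checks on the tissue, 6 hepatocyte markers led by Alb summed to 43760 to 152300 CPM, and the skeletal muscle markers summed to at most 0.329 CPM in any library. Knockout mouse 2 of HFCFD8W+T10D stood apart from the other 4 of its group in several of the 8 genes, and values without it are given beside the calls and counts that changed when it was left out.

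Hexoses enter the hepatocyte through GLUT2, the product of Slc2a2, a low-affinity transporter of glucose and fructose. Glucose is then phosphorylated by hexokinases, of which the high-affinity isozymes Hk1, Hk2 and Hk3 serve most cells other than hepatocytes, Hk3 being found mainly in myeloid cells. Fructose is phosphorylated by ketohexokinase (Khk), while aldolase A (Aldoa) is the widespread aldolase of glycolysis. The last step, from phosphoenolpyruvate to pyruvate, is catalysed by the product of Pklr in hepatocytes and red cells and by that of Pkm in most other tissues and in dividing cells. Fetal, regenerating and tumour liver are known for a shift from the liver isozymes to the widespread ones.

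Promoters of 3 of the genes are shown, 2 that were lower and 1 that was higher in HFCFD12W+T10W knockouts, since they hold motifs of factors that belong to the pathway or were deleted. Each runs from 250 bases before to 50 bases after a RefSeq start site on GRCm38.p6, 5′ to 3′ on the gene's strand. Capitals mark the E box CACGTG, the E box variant CACGGG, the C/EBP motif TTGCNNAA and the GC box GGGCGG, each searched on both strands, and none of the 4 contains another.
Pklr, second start site, plus strand, chr3:89136373-89136672: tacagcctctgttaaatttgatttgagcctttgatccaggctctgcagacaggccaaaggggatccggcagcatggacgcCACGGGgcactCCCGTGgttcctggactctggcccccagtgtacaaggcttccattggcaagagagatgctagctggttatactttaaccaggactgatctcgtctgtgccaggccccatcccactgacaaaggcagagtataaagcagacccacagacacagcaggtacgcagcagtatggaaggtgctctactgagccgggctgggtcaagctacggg
Khk, plus strand, chr5:30921309-30921608: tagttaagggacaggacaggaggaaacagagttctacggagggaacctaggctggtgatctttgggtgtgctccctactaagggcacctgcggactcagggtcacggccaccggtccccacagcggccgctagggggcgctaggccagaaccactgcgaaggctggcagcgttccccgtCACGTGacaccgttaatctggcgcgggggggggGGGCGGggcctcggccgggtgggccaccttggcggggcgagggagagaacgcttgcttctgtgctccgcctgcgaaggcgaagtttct
Pkm, first start site, plus strand, chr9:59656326-59656625: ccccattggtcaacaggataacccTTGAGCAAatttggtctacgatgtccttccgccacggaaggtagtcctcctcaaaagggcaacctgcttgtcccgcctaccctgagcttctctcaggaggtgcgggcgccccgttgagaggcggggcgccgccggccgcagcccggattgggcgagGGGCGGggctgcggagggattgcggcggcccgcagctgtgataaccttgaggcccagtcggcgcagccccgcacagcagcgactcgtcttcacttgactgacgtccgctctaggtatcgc
The Pklr window holds 2 E box variants, whose first bases lie at -170 and -159 from the start site, a spacing known from the carbohydrate response element of this gene, to which ChREBP (Mlxipl) binds. The Khk window holds an E box at -71 and a GC box at -38. The Pkm window holds a C/EBP motif at -226 and a GC box at -70. Among all 32851 RefSeq promoter windows, 10.8% held the C/EBP motif, 7.15% the E box, 10.1% the variant and 35.7% the GC box. Of the 13 windows of the 8 genes, 1 held the C/EBP motif, 1 the E box, 1 the variant and 5 the GC box. A motif in a window is a match of letters and no evidence of binding.

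On the TPM scale, which corrects for transcript length, Khk, Pklr and Slc2a2 had the highest mean levels of the 8 genes in controls of HFCFD2W. In these mice Khk was 394.5 ± 70.9 TPM, Pklr 205 ± 40.0 TPM and Slc2a2 168 ± 18.8 TPM (SD, n = 5 for each). Aldoa was 60.9 ± 7.14 TPM and Pkm 5.97 ± 0.489 TPM. Hk1 and Hk3 were 0.678 ± 0.167 and 0.878 ± 0.189 TPM. Hk2 rested on 3 to 6 counts per library, and its TPM of 0.07 to 1.11 were not precise enough to rank it.

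All 8 genes passed the test in HFCFD12W+T10W, 3 did in HFCFD8W+T10D (2 without knockout mouse 2, Hk3 and Khk) and 1 in HFCFD2W. A gene passed with an edgeR adjusted p under 0.05 (quasi-likelihood, Benjamini-Hochberg, all genes tested). In HFCFD12W+T10W, Hk1, Hk2, Hk3, Pkm and Aldoa were higher in knockouts, where 27.4% of 12463 genes tested were higher, and Pklr, Khk and Slc2a2 were lower, where 23.8% were lower. In HFCFD8W+T10D, Hk2, Hk3 and Pkm were higher and none was lower, against 10.3% and 6.86% of 11990 genes. In HFCFD2W, Khk was lower and none of the 7 genes tested was higher, against 8.09% and 8.6% of 11068 genes, and Hk2 was not tested for want of counts. With a fold change over 2 required as well, 4 genes passed in HFCFD12W+T10W (17.7% of all genes), 2 in HFCFD8W+T10D (6.1%) and 0 in HFCFD2W (3.07%). Without knockout mouse 2 of HFCFD8W+T10D, 1 gene passed this rule there. The median log2 fold change of the genes tested was 0.87, 0.50 and -0.26 in HFCFD12W+T10W, HFCFD8W+T10D and HFCFD2W, beside 0.01 over all genes in each. Since the 8 genes were chosen with earlier results known, the shares of all genes give a scale and are no test of the set.

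**Figure D1:**
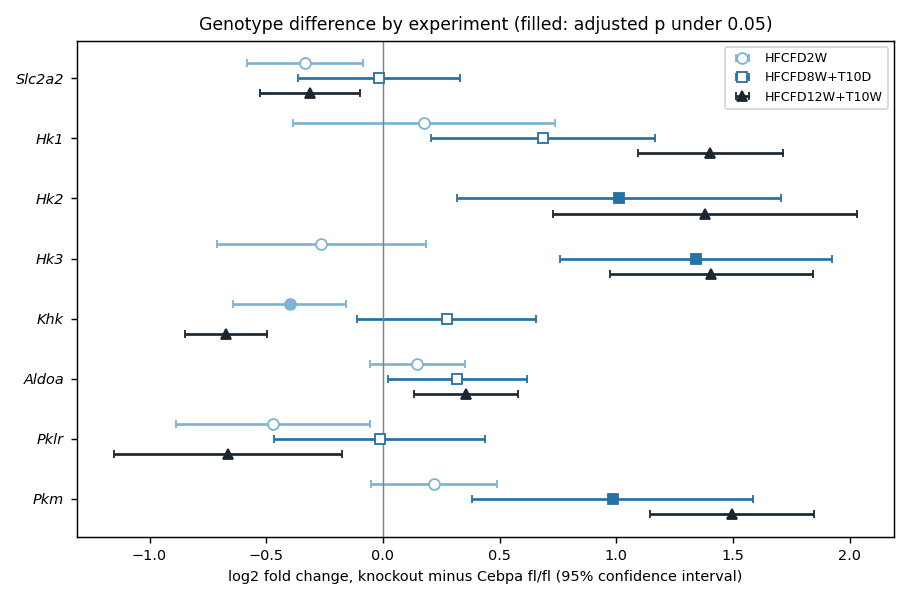
Log2 fold change, knockout minus Cebpa fl/fl, of the 8 genes in 3 experiments, with 95% confidence intervals from edgeR (x axis). Filled symbols mark an adjusted p under 0.05: all 8 genes in HFCFD12W+T10W, 3 in HFCFD8W+T10D (2 without knockout mouse 2, not drawn) and 1 of 7 in HFCFD2W.

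Slc2a2 (chr3:28697903-28731359, plus strand, GRCm38), the hepatocyte glucose and fructose transporter, fell modestly with Cebpa deletion in the longest experiment. Its levels in HFCFD12W+T10W were 398, 421, 355, 312 and 304 CPM in Cebpa fl/fl mice and 306, 272, 291, 266 and 262 CPM in Cebpa ΔHep,ERT2 mice. The groups overlapped in 1 pair of mice, the highest knockout and the lowest control, and the log2 fold change was -0.31 (95% CI -0.53 to -0.10, adjusted p = 0.0177). In HFCFD2W it was 583 to 696 CPM in controls and 367 to 584 CPM in knockouts, with a log2 fold change of -0.33 that did not pass (adjusted p = 0.0654). In HFCFD8W+T10D it was 236 to 355 against 214 to 332 CPM, with a log2 fold change of -0.02 (95% CI -0.36 to 0.33). The fall in HFCFD12W+T10W depended on the scaling: with library totals in place of TMM the log2 fold change was 0.05 (adjusted p = 0.656) while the median of all genes moved to 0.38, so that Slc2a2 was still below the median. With upper quartile scaling it was -0.23 (adjusted p = 0.0629).

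The 3 high-affinity hexokinases, scarce in control liver, rose by more than 2-fold in HFCFD12W+T10W. Hk1 (chr10:62268855-62379908, minus strand) was 3.32, 4.08, 4.82, 4.36 and 4.74 CPM in Cebpa fl/fl mice and 10.6, 11.9, 8.36, 11.8 and 12.4 CPM in Cebpa ΔHep,ERT2 mice. Every knockout was above every control, a log2 fold change of 1.40 (95% CI 1.10 to 1.71, adjusted p = 6.2e-06). Hk2 (chr6:82725025-82774454, minus strand), the insulin-responsive isozyme of muscle and fat, was 1.42, 2.94, 1.49, 1.72 and 3.83 CPM in controls and 4.01, 7.11, 4.30, 5.47 and 8.40 CPM in knockouts. These groups did not overlap either, with 12 to 38 counts per library against 46 to 104 and a log2 fold change of 1.38 (adjusted p = 0.00195). Hk3 (chr13:55005985-55021385, minus strand) was 2.85, 3.17, 4.71, 3.67 and 4.84 CPM in controls and 9.49, 14.1, 7.26, 9.84 and 9.21 CPM in knockouts, again without overlap, with a log2 fold change of 1.41 (adjusted p = 8.9e-05).

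In HFCFD8W+T10D, Hk3 was the hexokinase whose rise kept its call whichever mouse was left out (adjusted p up to 0.0167). It was 5.56, 5.82, 5.44, 4.77 and 3.34 CPM in Cebpa fl/fl mice and 12.7, 19.6, 14.4, 7.23 and 7.97 CPM in Cebpa ΔHep,ERT2 mice, without overlap (log2 fold change 1.34, adjusted p = 0.0056). Without knockout mouse 2, the highest, it was 1.10 (adjusted p = 0.0104). Hk2 was 2.31, 1.81, 3.59, 1.73 and 2.36 CPM in controls and 4.68, 7.73, 5.52, 2.49 and 2.94 CPM in knockouts, which overlapped. Its log2 fold change of 1.01 passed narrowly (adjusted p = 0.0464) and was 0.74 without knockout mouse 2 (adjusted p = 0.122), and it also missed the threshold without 6 of the other 9 mice. Hk1 was 7.41, 6.46, 4.51, 4.57 and 4.23 CPM in controls and 6.74, 12.99, 8.12, 7.47 and 7.59 CPM in knockouts. It lay at the threshold (log2 fold change 0.69, adjusted p = 0.0503), with 0.47 without knockout mouse 2 (adjusted p = 0.128). In HFCFD2W no hexokinase passed: Hk1 was 1.48 to 3.26 against 1.91 to 4.46 CPM and Hk3 1.99 to 3.31 against 1.77 to 2.97 CPM, while Hk2 had 3 to 6 counts per control library and 4 to 12 per knockout library.

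Khk (chr5:30921431-30931248, plus strand), the enzyme that commits fructose to its own pathway, fell in HFCFD12W+T10W and HFCFD2W but not in HFCFD8W+T10D. In HFCFD12W+T10W it was 280.3, 289, 244, 296 and 232 CPM in Cebpa fl/fl mice and 167, 154, 169, 160.2 and 166 CPM in Cebpa ΔHep,ERT2 mice. The groups did not overlap and the knockouts lay close together, with a log2 fold change of -0.67 (95% CI -0.85 to -0.50, adjusted p = 2.3e-05). It was -0.30 with library totals (adjusted p = 0.0058). In HFCFD2W Khk was 466, 502, 531, 454 and 658 CPM in Cebpa fl/fl mice and 365, 355, 379.6, 454 and 425 CPM in Cebpa ΔHep mice. The highest knockout, at 454.5 CPM, was just above the lowest control, at 453.5 CPM, and the log2 fold change of -0.40 (adjusted p = 0.0292) lost its call without any 1 of 5 of the 10 mice, controls 3 and 5 and knockouts 2, 3 and 4 (adjusted p up to 0.0641). In HFCFD8W+T10D it was 398, 297, 296, 310.0 and 359.6 CPM in controls and 429, 232, 402, 472 and 454 CPM in knockouts, where mouse 2 was lowest and the other 4 were above every control. The log2 fold change there was 0.27 (adjusted p = 0.326), and 0.41 without mouse 2 (adjusted p = 0.0498).

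Aldoa (chr7:126795234-126800751, minus strand) rose by 1.28-fold in HFCFD12W+T10W and did not pass elsewhere. In HFCFD12W+T10W it was 72.9, 59.1, 73.0, 74.9 and 85.96 CPM in Cebpa fl/fl mice and 75.5, 102, 93.7, 87.5 and 96.4 CPM in Cebpa ΔHep,ERT2 mice. The lowest knockout lay below the highest control, and the log2 fold change was 0.36 (95% CI 0.13 to 0.58, adjusted p = 0.0118). It was 0.32 in HFCFD8W+T10D (adjusted p = 0.133) and 0.15 in HFCFD2W (adjusted p = 0.309).

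The pyruvate kinase genes moved in opposite directions in HFCFD12W+T10W. Pkm (chr9:59656368-59679375, plus strand) was 18.8, 20.1, 24.6, 19.8 and 31.7 CPM in Cebpa fl/fl mice and 50.1, 83.8, 57.7, 61.8 and 62.6 CPM in Cebpa ΔHep,ERT2 mice, without overlap (log2 fold change 1.50, 95% CI 1.15 to 1.85, adjusted p = 1.0e-05). Pklr (chr3:89136142-89146784, plus strand) was 221, 263, 123, 189 and 93.02 CPM in controls and 123, 116, 101, 102 and 102 CPM in knockouts. Control mouse 5 was below every knockout and control mouse 3 was level with the highest, and the log2 fold change of -0.66 (adjusted p = 0.0262) missed the threshold without any 1 of controls 1 and 2 and knockouts 3, 4 and 5 (adjusted p up to 0.0612) and with library totals (-0.30, adjusted p = 0.266).

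In HFCFD8W+T10D, Pkm was 36.01, 34.1, 30.3, 20.8 and 36.1 CPM in controls and 53.6, 109, 70.2, 36.4 and 37.4 CPM in knockouts. The groups were separate by a narrow gap and the rise was 0.98 in log2 (adjusted p = 0.029), but 0.66 without knockout mouse 2 (adjusted p = 0.0571), and 4 other mice could each end the call (knockout 3 and controls 2, 3 and 4, adjusted p up to 0.0727). Pklr was 279, 211, 243, 262 and 199 CPM in controls and 295, 123, 194, 298 and 263 CPM in knockouts, with mouse 2 lowest (log2 fold change -0.01, 95% CI -0.47 to 0.44). In HFCFD2W, Pkm was 12.8 to 14.98 CPM in controls and 12.7 to 19.6 CPM in knockouts (log2 fold change 0.22, adjusted p = 0.251). Pklr was 570.3, 515, 646, 464 and 667 CPM in Cebpa fl/fl mice and 300.5, 295, 422, 638 and 407 CPM in Cebpa ΔHep mice. Of these knockouts 4 of 5 were below every control, and the log2 fold change of -0.47 did not pass (adjusted p = 0.113) with knockout mouse 5, at 638 CPM, and did without it (-0.69, adjusted p = 0.0072). Expression was counted per gene, so the 2 start sites of Pklr and the splice forms of Pkm were not told apart.

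**Figure D2:**
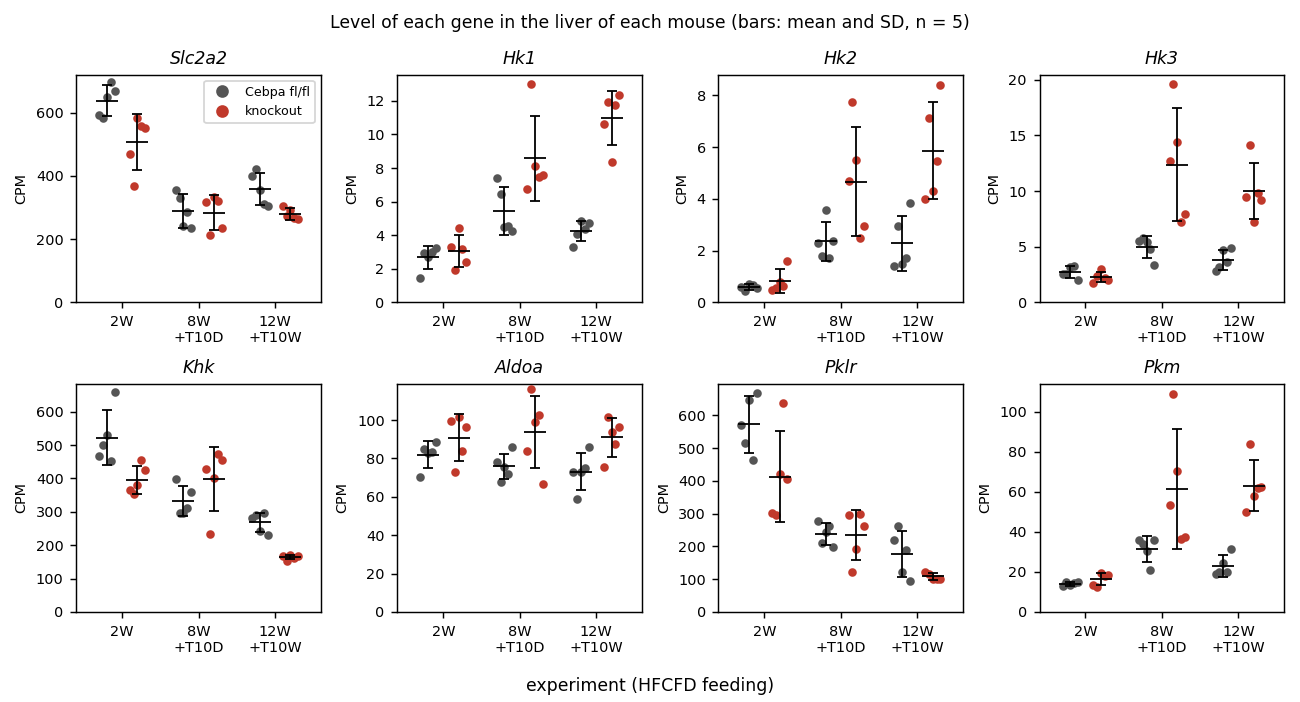
CPM (y axis) of the 8 genes in the liver of each mouse of 3 experiments (x axis), with the mean and SD of 5 mice. Grey points are Cebpa fl/fl and red points knockout mice: Hk1, Hk2, Hk3, Khk and Pkm did not overlap between genotypes in HFCFD12W+T10W. The share of all genes without overlap was not counted. By the edgeR test 27.4% of all genes were higher and 23.8% lower there.

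Ratios of Pkm to Pklr and of Slc2a1 to Slc2a2, taken within each library on the TPM scale, do not depend on the scaling between libraries. They were compared by a two-sided exact permutation test, whose smallest p with 5 against 5 mice is 0.00794, adjusted over 12 tests, of which 6 are given. Pkm made up 13.7% ± 7.12 of the summed TPM of Pkm and Pklr in Cebpa fl/fl mice of HFCFD12W+T10W and 38.1% ± 5.61 in Cebpa ΔHep,ERT2 mice (SD, n = 5). The ratio rose by 2.09 in log2, without overlap (adjusted exact p = 0.0191). In HFCFD2W the share was 2.89% ± 0.443 in controls and 4.55% ± 0.797 in knockouts, a rise of 0.67 in log2 with overlap (adjusted exact p = 0.0238). In HFCFD8W+T10D it was 8.59% to 17.2% in controls and 17.7%, 48.4%, 27.3%, 12.3% and 13.7% in the 5 knockouts, and the rise of 0.89 did not pass (adjusted exact p = 0.169), nor did 0.45 without mouse 2 (adjusted exact p = 0.339).

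Slc2a1, the widespread transporter GLUT1, rose against Slc2a2 in all 3 experiments, by 1.14, 0.42 and 0.72 in log2 in HFCFD2W, HFCFD8W+T10D and HFCFD12W+T10W (adjusted exact p = 0.0238, 0.0191 and 0.0191), with overlap in HFCFD2W. Its share of their summed TPM stayed small, 4.44% ± 1.56, 5.35% ± 1.05 and 7.43% ± 1.51 in the knockouts. The rise in HFCFD12W+T10W was 0.49 in log2 on counts not corrected for length (adjusted exact p = 0.0952). As a difference in medians each of these ratio calls, Pkm to Pklr included, had an adjusted exact p of 0.0714, with or without overlap. With 5 against 5 mice the smallest p for medians is larger than for means. That test could therefore hardly pass and cannot decide whether the calls hold. Of the genes themselves, Slc2a1 passed in HFCFD2W (log2 fold change 0.82, adjusted p = 0.0105) and Slc2a2 in HFCFD12W+T10W.

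**Figure D3:**
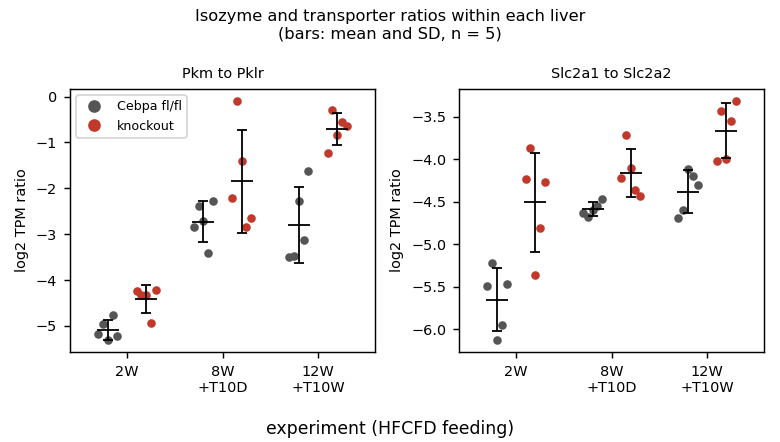
Log2 TPM ratios (y axis) of Pkm to Pklr and of Slc2a1 to Slc2a2 in each mouse of 3 experiments (x axis), with the mean and SD of 5 mice. Grey points are Cebpa fl/fl and red points knockout mice, and in HFCFD12W+T10W both ratios did not overlap between genotypes.

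Whether the genotype effect differed between experiments was tested as an interaction in 1 fit of all libraries. Hk3, Hk1, Pkm and Khk, 4 of the 8 genes, had such a difference. Against HFCFD2W, the effect of HFCFD8W+T10D was higher for Hk3, by 1.59 in log2 (adjusted p = 0.0049), and for Khk, by 0.66 (adjusted p = 0.0237), where 11.3% of 12964 genes differed. Against HFCFD2W, that of HFCFD12W+T10W was higher for Hk3, by 1.63 (adjusted p = 0.0014), Pkm, by 1.24 (adjusted p = 0.0053), and Hk1, by 1.19 (adjusted p = 0.0059), where 30.7% differed. That count is near the share of all genes. Between the inducible knockouts only Khk differed among the 8, by -0.98 in HFCFD12W+T10W minus HFCFD8W+T10D (adjusted p = 0.0019), a count near the 10.5% of all genes that differed. Without knockout mouse 2 of HFCFD8W+T10D, Hk1 and Pkm also differed there, by 0.91 (adjusted p = 0.0193) and 0.82 (adjusted p = 0.0295). Knockout strain, diet time and tamoxifen changed together between HFCFD2W and the others and cannot be told apart.

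The control livers differed between experiments in most of these genes. From HFCFD2W to HFCFD8W+T10D, Hk2 rose by 1.94, Pkm by 1.16, Hk1 by 1.00 and Hk3 by 0.87 in log2 in Cebpa fl/fl mice (adjusted p of 2.4e-04 to 0.0085), while Pklr fell by 1.26, Slc2a2 by 1.14 and Khk by 0.65 (adjusted p of 2.4e-07 to 3.2e-04), 7 of 8 genes where 43.6% of all genes differed. From HFCFD2W to HFCFD12W+T10W, Hk2 rose by 1.91, Pkm by 0.71 and Hk1 by 0.66, and Pklr fell by 1.69, Khk by 0.96 and Slc2a2 by 0.83, 6 of 8 genes where 39.1% differed. Hk2, counted in both comparisons, had 3 to 6 counts per library in controls of HFCFD2W. It failed the filter on low counts within HFCFD2W and entered the joint fit through the groups where it was higher. The size of its rises is therefore imprecise, and its calls add no support to these counts. Both comparisons share the HFCFD2W controls, whose labels name no tamoxifen. Diet time, tamoxifen and experiment changed together between the control groups and cannot be told apart. Between the controls of HFCFD8W+T10D and HFCFD12W+T10W 0 of the 8 genes passed in edgeR, 2 (Slc2a2 and Khk) had an unadjusted p under 0.05, and 11.4% of all genes passed. Khk passed there when knockout mouse 2 of HFCFD8W+T10D was left out of the joint fit (-0.31, adjusted p = 0.044). Macrophage markers summed to 129 to 167 CPM in controls of HFCFD2W and to 446 to 718 and 227 to 688 CPM in those of HFCFD8W+T10D and HFCFD12W+T10W, and their part in these differences was not tested.

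Over all 6 groups, Hk1, Hk2 and Pkm were highest in knockouts of HFCFD12W+T10W and lowest in controls of HFCFD2W, with 8.36 to 12.4 and 1.48 to 3.26 CPM for Hk1, and group means of 5.86 and 0.599 CPM for Hk2 and 63.2 and 14.1 CPM for Pkm. Hk3 was highest in knockouts of HFCFD8W+T10D (12.4 CPM) and lowest in those of HFCFD2W (2.26 CPM). Pklr, Khk and Slc2a2 were highest in controls of HFCFD2W (573, 522 and 638 CPM) and lowest in knockouts of HFCFD12W+T10W (109, 163 and 279.6 CPM). Most neighbours in these orders overlapped. Those that did not were, for Pkm, knockouts and controls of HFCFD8W+T10D, for Hk3, knockouts of HFCFD12W+T10W and controls of HFCFD8W+T10D, and for Pklr, knockouts of HFCFD2W and controls of HFCFD8W+T10D. For Khk, the controls of HFCFD8W+T10D and HFCFD12W+T10W were separate by a narrow gap, 296.4 CPM in the lowest and 296.3 CPM in the highest, as were both genotypes of HFCFD12W+T10W.

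Markers of other cells also differed between the genotypes, and not all of them were higher. In bulk liver, fewer cells of a type and less RNA per cell cannot be told apart. In HFCFD12W+T10W 27.4% of all genes were higher and 23.8% lower, to be set beside the counts of markers below. The shares were 10.3% and 6.86% in HFCFD8W+T10D, and 8.6% and 8.09% in HFCFD2W. Of 10 macrophage markers 8 were higher and 1 lower in knockouts of HFCFD12W+T10W, and their summed level was 714 to 838 CPM in knockouts against 227 to 688 CPM in controls. In HFCFD8W+T10D 9 of 10 were higher, with 683 to 1478 against 446 to 718 CPM, and 4 of 10 without knockout mouse 2, whose sum was the highest. In HFCFD2W 3 of 9 tested were higher, with 154 to 255 against 129 to 167 CPM. Clec4f, the most abundant of them and a Kupffer cell lectin, did not pass in any experiment.

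Of 8 stellate cell markers, 8 were higher in HFCFD12W+T10W, 2 in HFCFD8W+T10D (0 without knockout mouse 2) and 0 in HFCFD2W, with sums of 1132 to 1415 CPM in knockouts of HFCFD12W+T10W against 262 to 337 CPM in controls. All 6 cholangiocyte markers were higher in HFCFD12W+T10W (43.8 to 72.8 against 9.26 to 12.2 CPM), with 2 of 5 tested higher in HFCFD8W+T10D (1 without knockout mouse 2) and 0 of 2 in HFCFD2W. All 5 cell division markers were higher in HFCFD12W+T10W, 4 in HFCFD8W+T10D (3 without knockout mouse 2) and 1 of 2 tested in HFCFD2W. Of 6 hepatocyte markers 4 were lower in HFCFD12W+T10W and 2 in HFCFD8W+T10D (1 without knockout mouse 2), among them Alb, with log2 fold changes of -1.10 and -0.94, and 1 was higher in HFCFD2W. Without knockout mouse 2 that of Alb in HFCFD8W+T10D was -0.86 and did not pass (adjusted p = 0.0534). Of 6 endothelial markers 2, 1 and 0 were lower and none was higher in HFCFD12W+T10W, HFCFD8W+T10D and HFCFD2W. These counts of lower endothelial markers, 2 of 6 beside 23.8% of all genes and 1 of 6 beside 6.86%, are too small to be read as a result. Of 4 neutrophil markers 2 had enough counts, and both were higher in HFCFD12W+T10W and neither in HFCFD8W+T10D. The 4 summed to 2.15 to 5.96 CPM in controls and 10.1 to 72.4 CPM in knockouts of HFCFD12W+T10W. Markers scarce in controls can pass the count filter through the knockouts alone, so counts of such markers lean towards higher and are no test. Of 4 erythroid markers, which matter for the red-cell product of Pklr, 2 were higher and 1 lower in HFCFD12W+T10W, 3 were higher in HFCFD8W+T10D (1 without knockout mouse 2) and 1 was lower in HFCFD2W. Those of HFCFD12W+T10W are not far from the shares of all genes. Among the most abundant genes of these lists, the log2 fold change in HFCFD12W+T10W was 0.89 for Dcn (stellate cell), 0.69 for Pcna (cell division), -0.54 for Stab2 (endothelial), 2.71 for S100a9 (neutrophil) and 0.90 for Hbb-bs (erythroid), each past the threshold. The adipocyte genes Adipoq and Plin1 had no count in any library, and Cfd, the adipocyte marker that could be tested, had log2 fold changes of -4.74 and -4.23 in HFCFD12W+T10W and HFCFD8W+T10D. The part of these cells in the isozyme differences was not tested.

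**Figure D4:**
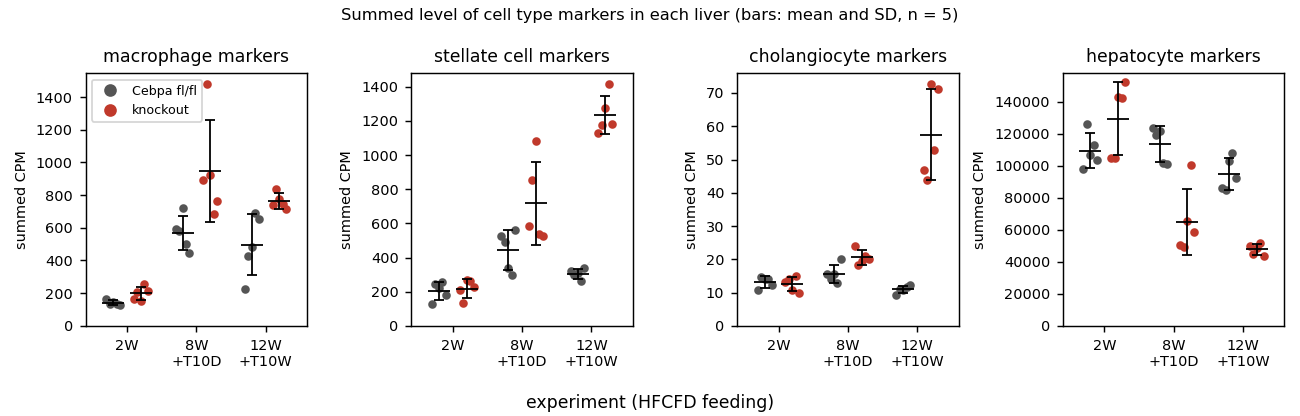
Summed CPM (y axis) of macrophage, stellate cell, cholangiocyte and hepatocyte markers in each mouse of 3 experiments (x axis), with the mean and SD of 5 mice. Grey points are Cebpa fl/fl and red points knockout mice. Macrophage and stellate cell sums were higher in every knockout than in every control of HFCFD12W+T10W.

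Other genes of the pathway were taken from lists of enzymes, regulators, fructose genes, transporters and factors. Their counts stand beside 27.4% of all genes higher and 23.8% lower in HFCFD12W+T10W, 10.3% and 6.86% in HFCFD8W+T10D, and 8.6% and 8.09% in HFCFD2W. Of 17 other glycolytic enzymes 4 were higher and 5 lower in HFCFD12W+T10W (16 tested, median log2 fold change -0.14), 2 higher and 0 lower in HFCFD8W+T10D (3 and 0 without knockout mouse 2), and 1 higher and 0 lower in HFCFD2W. Shares of 4 and 5 of 16 in HFCFD12W+T10W are near those of all genes. Pfkp, the platelet-type phosphofructokinase, was 2.47 ± 0.671 CPM in controls and 6.15 ± 0.763 CPM in knockouts of HFCFD12W+T10W (log2 fold change 1.35) and rose by 0.78 in HFCFD8W+T10D, where it did not pass without knockout mouse 2 (0.62, adjusted p = 0.0938). Aldoc, another aldolase, was 9.20 ± 1.64 CPM in controls and 29.7 ± 4.87 CPM in knockouts of HFCFD2W (1.68) and rose by 1.09 in HFCFD12W+T10W. Hkdc1, a hexokinase-like gene named after its values were seen, had 0 to 3 counts per library in controls of HFCFD12W+T10W and 20 to 29 in knockouts.

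Of 14 regulators of glycolytic flux, 10 were lower and 2 higher in HFCFD12W+T10W, 3 lower and 0 higher in HFCFD8W+T10D (2 lower without knockout mouse 2), and 3 lower and 2 higher in HFCFD2W. Mpc1 and Mpc2, the subunits of the mitochondrial pyruvate carrier, fell in all 3 experiments, by 0.57, 0.41 and 0.58 for Mpc1 and by 0.46, 0.46 and 0.88 for Mpc2 in HFCFD2W, HFCFD8W+T10D and HFCFD12W+T10W. The call of Mpc1 in HFCFD8W+T10D was lost without knockout mouse 2 (-0.34, adjusted p = 0.101). Pdk2, a kinase that inhibits pyruvate dehydrogenase, fell by 0.26 in HFCFD2W and by 0.69 in HFCFD12W+T10W. Pfkfb3, a source of the phosphofructokinase activator fructose 2,6-bisphosphate, was 17.5 ± 10.1 CPM in controls and 77.4 ± 9.48 CPM in knockouts of HFCFD2W (2.14) but fell by 0.57 in HFCFD12W+T10W. Pfkfb1, its liver counterpart, rose by 0.58 in HFCFD2W and fell by 0.56 and 0.49 in HFCFD8W+T10D and HFCFD12W+T10W.

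In the fructose and polyol pathway, 3 of 7 genes were higher and 3 lower in HFCFD12W+T10W, 3 higher and 1 lower in HFCFD8W+T10D (2 higher without knockout mouse 2), and 2 higher and 2 lower in HFCFD2W. Aldh1b1, a mitochondrial aldehyde dehydrogenase, rose in all 3, from 23.6 ± 8.48 to 69.6 ± 14.9 CPM in HFCFD12W+T10W and from 30.5 ± 11.9 to 107 ± 35.7 CPM in HFCFD8W+T10D. Akr1b3, the aldose reductase that opens the polyol route from glucose to fructose, also rose in all 3, by 1.10 in log2 in HFCFD12W+T10W, 0.62 in HFCFD8W+T10D and 0.78 in HFCFD2W, the call in HFCFD8W+T10D being lost without knockout mouse 2 (0.58, adjusted p = 0.0862). Glyctk, a glycerate kinase downstream of Khk, fell in all 3, by 0.64 in HFCFD12W+T10W, 0.60 in HFCFD8W+T10D and 0.25 in HFCFD2W. Tkfc, which phosphorylates the glyceraldehyde made from fructose, fell by 0.44 in HFCFD2W and rose by 0.57 in HFCFD8W+T10D.

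Of 11 other hexose and lactate transporters, 1 was higher and 2 lower in HFCFD12W+T10W (6 tested), 0 changed in HFCFD8W+T10D (7 tested, edgeR, with unadjusted p under 0.05 for 1 of them) and 1 was higher and 1 lower in HFCFD2W. Of 16 transcription and splicing factors of glycolysis, 4 were higher, a share near that of all genes, and 7 lower in HFCFD12W+T10W, 1 and 3 in HFCFD8W+T10D (0 and 2 without knockout mouse 2), and 1 and 3 in HFCFD2W. Mlxipl, the carbohydrate sensor ChREBP that drives Pklr, was 41.4 ± 8.13 CPM in controls and 15.5 ± 2.17 CPM in knockouts of HFCFD12W+T10W (log2 fold change -1.38) and fell by 0.61 in HFCFD2W. Srebf1, the insulin-responsive SREBP1, was 757 ± 135 CPM in controls and 333 ± 59.3 CPM in knockouts of HFCFD2W (-1.18) and fell by 0.54 in HFCFD12W+T10W. Hnf4a, a factor of the mature hepatocyte, fell by 0.96 in HFCFD12W+T10W and by 0.56 in HFCFD8W+T10D. Myc rose in the same experiments, by 1.59 and 0.80, and was the factor that was higher in HFCFD8W+T10D, where 0 of the 16 were higher without knockout mouse 2 (Myc 0.72, adjusted p = 0.0868).

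**Figure D5:**
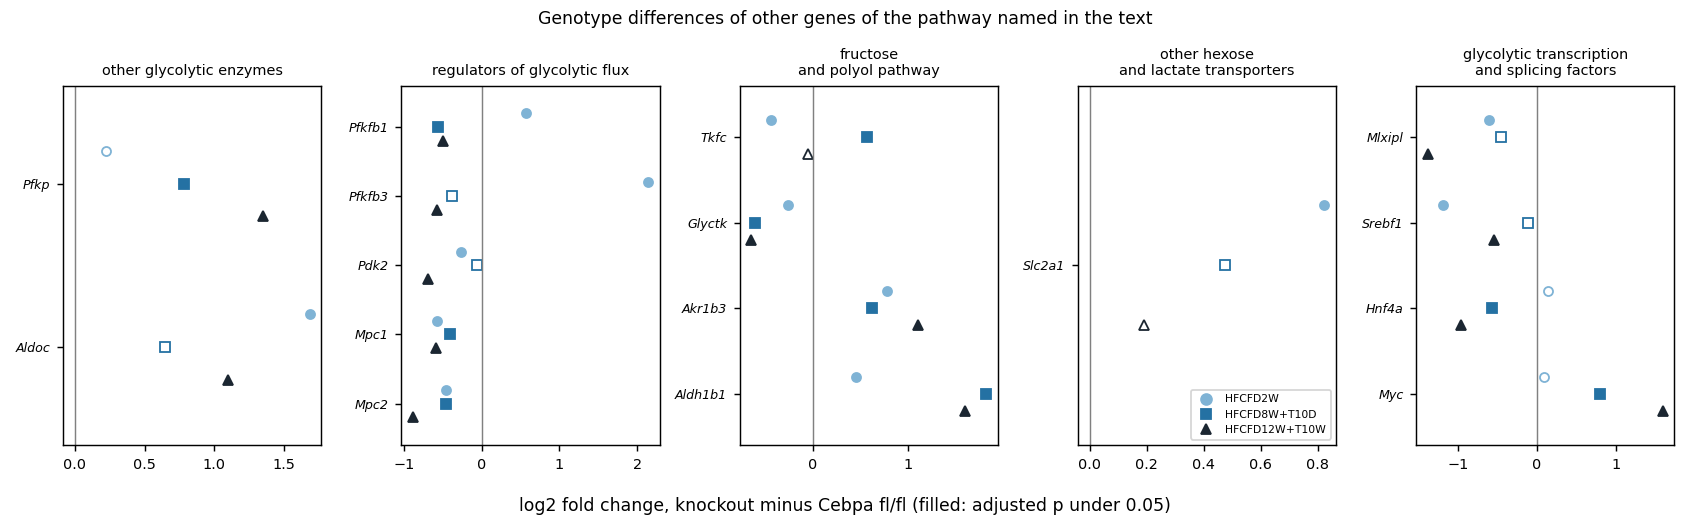
Log2 fold change, knockout minus Cebpa fl/fl (x axis), of the glycolytic enzymes, regulators, fructose and polyol genes, transporters and factors named in the text, in 3 experiments. Filled symbols mark an adjusted p under 0.05. Mpc1, Mpc2 and Glyctk lie below 0 and Aldh1b1 and Akr1b3 above 0 with filled symbols in all 3 experiments.

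Genes whose log2 CPM moved most like each of the 8 from mouse to mouse were sought over deviations from the group mean in 30 libraries and 10950 genes. They were Flna (Pearson r = 0.73) and Sod3 (0.73) for Hk1, Lyn (0.83) and Cd52 (0.80) for Hk3, Flna (0.82) and Tmsb10 (0.81) for Pkm, and Efhd2 (0.71) and Rcn3 (0.68) for Aldoa. Those for the liver-type genes were Acss2 (0.78) and Adipor2 (0.77) for Pklr, Pdk1 (0.83) for Khk, and Slc2a9 (0.82) and Bbox1 (0.82) for Slc2a2. Hk2 was not tested in all experiments and was left out. Without the 2 libraries in which the member deviated most, each r was lower, and that of Efhd2 with Aldoa was 0.54. These correlations describe libraries that share their group and are the highest of many.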

How the data were processed

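Livers of 30 mice, 1 library per mouse and 5 per group, were profiled by stranded poly(A) RNA-seq. According to the submitters' processing notes the authors used Trimmomatic 0.36, STAR 2.5.1, Picard 1.84 and RSEM 1.2.22, on gene models of GENCODE M21 (GRCm38). The authors deposited RSEM expected counts per gene, TPM per library, and CPM scaled by TMM (a normalized signal, already filtered), and their RPKM and FPKM were not used. Expected counts were rounded (3.25% were not whole) and tested in each experiment with edgeR 4.0.16 (glmQLFit, TMM, filterByExpr by genotype, Benjamini-Hochberg over all genes, adjusted p under 0.05) in R 4.3.3. Interactions and control contrasts came from 1 fit of 30 libraries. Mice of a group were taken as separate replicates, and intervals and p-values measure the spread between them. Ratios were taken on deposited TPM and tested by exact permutation. The script was tested on simulated data. The members and all gene lists were chosen with earlier results of these data known. Pathway genes were named where they passed in at least 2 experiments, by mean absolute log2 fold change, up to 5 per list, with the most abundant gene of marker lists, with Slc2a1 and, for likeness, the 2 genes of highest correlation. Some genes and results under these rules are not reported here. Alternatives were DESeq2, upper quartile and RLE scaling, library totals, limma on the authors' CPM, no filter, a replicate block, other thresholds and leaving out each mouse. Promoter sequences are from RefSeq (GRCm38.p6), with 8 of 8 symbols matched.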

Additional observations from a re-analysis of the deposited data

Results flagged for a closer look

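Hk1 in knockout mouse 2 of HFCFD8W+T10D, at 12.99 CPM, stood apart from the other 4 mice of its group, with a gap to the nearest of 0.779 of the group's range. The log2 TPM ratio of Pkm to Pklr in knockout mouse 5 of HFCFD2W, at -4.94, stood apart in the same way, with 0.838 of the range. These were 2 of 60 groups examined at a critical value of 0.71, and chance gives such a value in about 1 group in 20.

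The genotype effect differed between experiments by a test of the interaction itself for Hk3, by 1.59 in HFCFD8W+T10D minus HFCFD2W and 1.63 in HFCFD12W+T10W minus HFCFD2W. It differed for Khk by 0.66 in HFCFD8W+T10D minus HFCFD2W, a call lost without control mouse 5 of HFCFD2W (0.56, adjusted p = 0.0597), and by -0.98 in HFCFD12W+T10W minus HFCFD8W+T10D. It differed for Pkm and Hk1 by 1.24 and 1.19 in HFCFD12W+T10W minus HFCFD2W. All are in log2.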

How the results depend on the processing

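Of the 8 genes, 1 passed in HFCFD2W (Khk), 2 with DESeq2, 0 with limma on the authors' CPM, 0 at an adjusted p under 0.01, 0 with a fold over 2, and 0 to 2 with a mouse left out. In HFCFD8W+T10D 3 passed, 5 with library totals (chosen after seeing the data), 1 with limma, 1 at an adjusted p under 0.01, and 1 to 4 with a mouse left out. In HFCFD12W+T10W 8 passed, 5 at an adjusted p under 0.01 and 4 with a fold over 2. Among differences that did not pass, those of Pklr and Slc2a2 in HFCFD8W+T10D turned positive with upper quartile scaling (0.0215 and 0.0181) and library totals (0.14 and 0.16), and ran from -0.12 to 0.14 and from -0.0837 to 0.0641 with a mouse left out. Slc2a2 in HFCFD12W+T10W was 0.0534 with library totals, a scaling that moved the median of all genes to 0.38 there and to 0.19 in HFCFD8W+T10D.

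As a difference in medians, the ratio of Pkm to Pklr was 0.86 in HFCFD2W and 2.49 in HFCFD12W+T10W, and that of Slc2a1 to Slc2a2 1.22, 0.37 and 0.75 in HFCFD2W, HFCFD8W+T10D and HFCFD12W+T10W, none past the threshold (adjusted exact p = 0.0714 for each). Slc2a1 to Slc2a2 in HFCFD12W+T10W was 0.49 on expected counts without length (adjusted exact p = 0.0952). The causes were not tested.

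Replicate numbers did not pair the mice, with same-number correlations of -0.324 to 0.217. With the replicate block 8 genes passed in HFCFD12W+T10W, 4 in HFCFD8W+T10D and 1 in HFCFD2W, Hk1 being added in HFCFD8W+T10D (0.67, adjusted p = 0.0471), and 5 genes rather than 4 differed between experiments, Hk2 being added (1.35, adjusted p = 0.0457). The control difference of Hk1 between HFCFD12W+T10W and HFCFD2W, 0.66, lost its call without any 1 of 3 mice (adjusted p up to 0.0886), as did that of Pkm without control mouse 5 of HFCFD12W+T10W (0.58, adjusted p = 0.07). Hk2 in HFCFD2W, at 3 to 12 counts per library, did not pass the filter on low counts.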
